A study of Mus musculus with 16 samples.

Results

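The membrane repair genes described here are 9 genes chosen by name: the annexins Anxa1, Anxa2, Anxa5 and Anxa6, the annexin A2 partner S100a10, the ferlins Dysf and Myof, and Trim72 and Cav3. All 9 were found by symbol among the 18194 genes represented on the arrays, and 18 of the 45101 probe sets belong to them. The rule names genes and uses no measured value, but the genes were chosen with earlier results of these data known. Shares of members set beside shares of all genes are therefore descriptions only. A gene with several probe sets was read from its brightest one, and levels are log2 of the deposited intensity. The brightest was chosen over the muscle arrays for muscle and over the cell line arrays for the cell lines. For the 9 members both choices gave the same probe set.

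The series asked what overexpression of Galgt2, the glycosyltransferase gene also called B4galnt2, does to muscle that lacks dystrophin. Gastrocnemius of male mice aged 2 months was profiled in 2 array sets. The first holds Galgt2 transgenic mdx muscle on a mixed C57BL/10J and C57BL/6J background, mdx muscle on C57BL/10J, Galgt2 transgenic muscle on C57BL/6J and wild-type muscle on C57BL/6J, with 2 arrays each. The mdx mice carry a mutated dystrophin gene on the strain C57BL/10J, and wild type is C57BL/6J, so genotype and substrain cannot be told apart in that comparison, and Galgt2 transgenic mdx likewise differs from mdx in background. The second set holds mdx muscle (C57BL/10J) treated with AAV-Galgt2 and the contralateral mdx muscle given PBS, with 2 arrays each, all of them dystrophin deficient. Another set holds the mouse muscle cell line C2C12 and C2CT, which is C2C12 stably transfected with Galgt2, each as myotubes and as myoblasts with 1 array per condition. The labels name neither the promoter of the transgene nor the mouse behind each array, and the spread behind each p-value is that between these arrays, which may be technical.

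A torn muscle fibre membrane is resealed within the living cell. Calcium flowing in through the wound makes annexins bind acidic phospholipids at the edge of the tear, where they build a cap, and S100A10 links annexin A2 into a complex that holds membranes together. Dysferlin and the related myoferlin carry calcium-binding C2 domains and serve the fusion of vesicles and myoblasts, TRIM72 (also called MG53) brings vesicles to the wound, and caveolin-3 forms the caveolae of muscle and helps keep dysferlin at the surface. Loss of dysferlin or of caveolin-3 causes muscular dystrophy in humans, and mdx fibres, which lack dystrophin, tear easily.

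The promoter windows of 3 members are shown because Anxa2 and Anxa5 were the members that passed the test in mdx muscle, and Cav3 differed the most of the 9 between cell line arrays. RefSeq windows on GRCm38.p6, which reach from 250 bases before to 50 bases after the start, were found for 7 of the 9 members. Capitals mark matches to the motifs searched on both strands, which were AP-1 (TGANTCA), the E-box (CANNTG), the GC box (GGGCGG), the TATA box (TATAAA) and the CArG box. The Anxa2 window lies at chr9:69453433-69453732 on the plus strand, the Anxa5 window at chr3:36475838-36476137 on the minus strand, and the Cav3 window at chr6:112459255-112459554 on the plus strand.
Anxa2: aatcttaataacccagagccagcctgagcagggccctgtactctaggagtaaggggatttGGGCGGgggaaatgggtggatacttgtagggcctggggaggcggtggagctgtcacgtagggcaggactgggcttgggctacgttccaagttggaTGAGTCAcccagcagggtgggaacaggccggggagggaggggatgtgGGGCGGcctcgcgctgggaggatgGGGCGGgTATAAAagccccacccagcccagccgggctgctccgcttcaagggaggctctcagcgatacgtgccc
Anxa5: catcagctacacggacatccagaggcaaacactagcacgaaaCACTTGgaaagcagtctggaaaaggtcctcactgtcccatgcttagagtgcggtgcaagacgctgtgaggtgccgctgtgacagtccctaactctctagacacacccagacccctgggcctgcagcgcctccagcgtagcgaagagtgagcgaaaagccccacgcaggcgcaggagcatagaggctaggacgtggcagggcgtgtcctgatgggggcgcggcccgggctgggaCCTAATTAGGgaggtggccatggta
Cav3: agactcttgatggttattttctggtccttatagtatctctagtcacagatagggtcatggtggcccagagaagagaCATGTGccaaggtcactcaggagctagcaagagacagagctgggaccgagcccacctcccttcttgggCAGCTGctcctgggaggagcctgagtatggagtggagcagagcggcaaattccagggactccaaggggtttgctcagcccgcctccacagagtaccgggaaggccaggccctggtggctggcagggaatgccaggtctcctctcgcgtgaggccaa
Anxa2 carried an AP-1 match starting at base -95, 3 GC boxes and a TATA box starting at -17. AP-1 matches lie in 7.81% of all 32851 windows, GC boxes in 35.7% and TATA boxes in 13.6%. Anxa5 carried a CArG match starting at base 26 after the start, a motif in 1.63% of windows, and an E-box starting at -208. Cav3 carried E-boxes starting at -174 and -106, a motif in 72.3% of windows. The printed matches do not overlap each other. A match describes the letters of the window and does not show that a factor binds there.

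The labels were checked first. B4galnt2 stood at 13.28 and 13.34 in Galgt2 transgenic mdx arrays and 13.17 and 13.32 in Galgt2 transgenic arrays, against 3.86 and 7.78 in mdx and 4.61 and 4.94 in wild type, so mdx replicate 2 stands apart from its partner. In injected mdx muscle B4galnt2 averaged 10.55 in AAV-Galgt2 arrays against 4.77 in PBS arrays. Dmd, the dystrophin gene, averaged 9.87 in Galgt2 transgenic mdx and 8.33 in mdx, against 11.15 in wild type. By limma Dmd was higher in Galgt2 transgenic mdx than in mdx by 1.54 (2.90-fold, adjusted p = 0.00305). The Galgt2 transgenic mdx arrays were thus not at the mdx level of Dmd, and the bearing of this on the members was not tested. Messages of macrophages and of regenerating fibres differed between the muscles. The summed intensity of 10 macrophage markers was 16414.5 to 16469.4 in Galgt2 transgenic mdx, 30358 to 35488.1 in mdx, 11172.8 to 16285.8 in Galgt2 transgenic and 5803.5 to 6164 in wild type. The sum of 7 markers of regenerating fibres, such as the embryonic myosin Myh3, was 9567.6 to 12236.3 in Galgt2 transgenic mdx, 10229.5 to 10391.1 in mdx, 8263.1 to 11193.1 in Galgt2 transgenic and 2091.3 to 2847.3 in wild type. In whole muscle, a changed number of cells of a type and a changed amount of RNA per cell cannot be told apart. Gapdh 3' probes exceeded 5' probes by 0.18 to 0.48 in log2 on the arrays of this set, save Galgt2 transgenic mdx replicate 2 at 1.23.

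In mdx muscle the annexins Anxa2 and Anxa5 rose. Anxa2, which links membranes and the actin cytoskeleton, had 12.69 and 12.35 in mdx arrays against 11.04 and 11.46 in wild-type arrays. Both mdx arrays stood above both wild-type arrays, and the log2 difference was 1.27 ± 0.31 (standard error, 2 arrays per group), or 2.41-fold, with adjusted p = 0.0437 in limma. Anxa5, whose protein binds phosphatidylserine and forms lattices on damaged membranes, had 11.43 and 11.54 in mdx against 10.38 and 10.29 in wild type. Its groups were also apart, with a difference of 1.14 ± 0.22, or 2.21-fold, and adjusted p = 0.0177. These 2 of 9 members compare with 3.75% of all genes called higher in mdx, and 0 of 9 were called lower, against 1.69% of all genes. Over all genes 682 were called higher and 308 lower; after centring each array on its median these counts were 540 and 1080, and Anxa5 alone of the 9 was called. The median difference of the 9 members was 0.81, against 0.01 over all genes.

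Neither call held in every fit with 1 array left out. A fit that leaves out 1 array of a group keeps 1 array there, which is assumed to vary like the arrays of the other groups; this holds for every such adjusted p given here. The Anxa2 call was lost without either wild-type array, either mdx array, either Galgt2 transgenic array or either AAV-Galgt2 array, with adjusted p between 0.0519 and 0.231 in those fits. The Anxa5 call was lost without wild-type replicate 1 (adjusted p = 0.0928), wild-type replicate 2 (0.118) or mdx replicate 2 (0.0728), while its difference stayed between 1.09 and 1.20 over all single-array omissions. Anxa2 has 2 further probe sets, both dim, and the mean over all 3 gave a difference of 0.55 (adjusted p = 0.204). Of 9 marker lists, the summed levels of 6 stood higher in mdx than in wild type without overlap. These were macrophages, neutrophils, fibroblasts, smooth muscle, regenerating fibres, and myoblasts and proliferation. The last list joins myoblast genes such as Myod1 with cell division genes such as Mki67. The endothelium sum stood lower. A sum is carried mostly by the brightest genes of its list, and genes within some lists disagreed. Of 6 endothelium genes, 3 averaged higher in mdx and 3 lower, and 0 had their groups apart. Of 4 smooth muscle genes, 1 had both mdx arrays above both wild-type arrays and 1 had both below. Of 6 fibroblast genes, 2 stood above and 1 below in this way, and 0 were called. The part of these lists in the Anxa2 and Anxa5 differences was not tested.

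Anxa1, a regulator of inflammation that also joins the repair cap, had 12.33 and 10.75 in mdx against 10.01 and 10.89 in wild type. Replicate 2 of mdx lay inside the wild-type range, and the difference of 1.09 ± 0.46 did not pass (adjusted p = 0.207). Without mdx replicate 2 it was 1.88 with adjusted p = 0.0363, and without mdx replicate 1 it was 0.31 with adjusted p = 0.711, so single arrays decide its size. Anxa6, an annexin with duplicated core repeats, had 10.92 and 9.95 in mdx against 9.56 and 10.33 in wild type, so the groups overlapped and the difference was 0.49 ± 0.58 (adjusted p = 0.724). S100a10 had 12.13 and 11.29 in mdx against 10.96 and 11.60 in wild type. It too overlapped, with a difference of 0.43 ± 0.30 (adjusted p = 0.497), so the partner of annexin A2 did not pass the test where Anxa2 did. Whether Anxa2 and S100a10 differ from each other in this respect was not tested.

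None of the ferlins and muscle-restricted members passed the test in mdx. Myof, the ferlin of fusing myoblasts, had 8.22 and 7.02 in mdx against 5.93 and 6.37 in wild type. Its wild-type levels were modest, at the 40.4 and 44.5 percentile of genes. A second, dim probe set had 3.25 and 3.29 in mdx against 3.36 and 3.78 in wild type, and the mean over both gave a difference of 0.58. On the brighter probe set the groups were apart. Its difference of 1.47 ± 0.40 (2.76-fold) was the greatest of the 9 but missed the threshold (adjusted p = 0.0629). Without mdx replicate 2 it was 2.06 (adjusted p = 0.029), and without mdx replicate 1 it was 0.87 (adjusted p = 0.213). Dysf had 10.61 and 10.46 in mdx against 10.07 and 10.27 in wild type, a difference of 0.37 ± 0.34 (adjusted p = 0.639). Cav3 had 9.79 and 9.54 in mdx against 8.44 and 9.26 in wild type, a difference of 0.81 ± 0.41 (adjusted p = 0.304). For both genes the mdx arrays stood above the wild-type arrays without passing the test. In all, 5 of 9 members had both mdx arrays above both wild-type arrays, against 23.7% of all genes, and 1 had both below, against 21.6%.

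That 1 member was Trim72, with 4.60 and 4.38 in mdx against 4.94 and 4.74 in wild type (difference -0.35 ± 0.22, adjusted p = 0.436). Its only probe set was dim on every muscle array, between the 20.8 and 34.7 percentile of all genes. Trim72 is a gene of skeletal and heart muscle, and the deposited values hold no detection call for it, so these numbers are given for the probe set only.

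**Figure D1:**
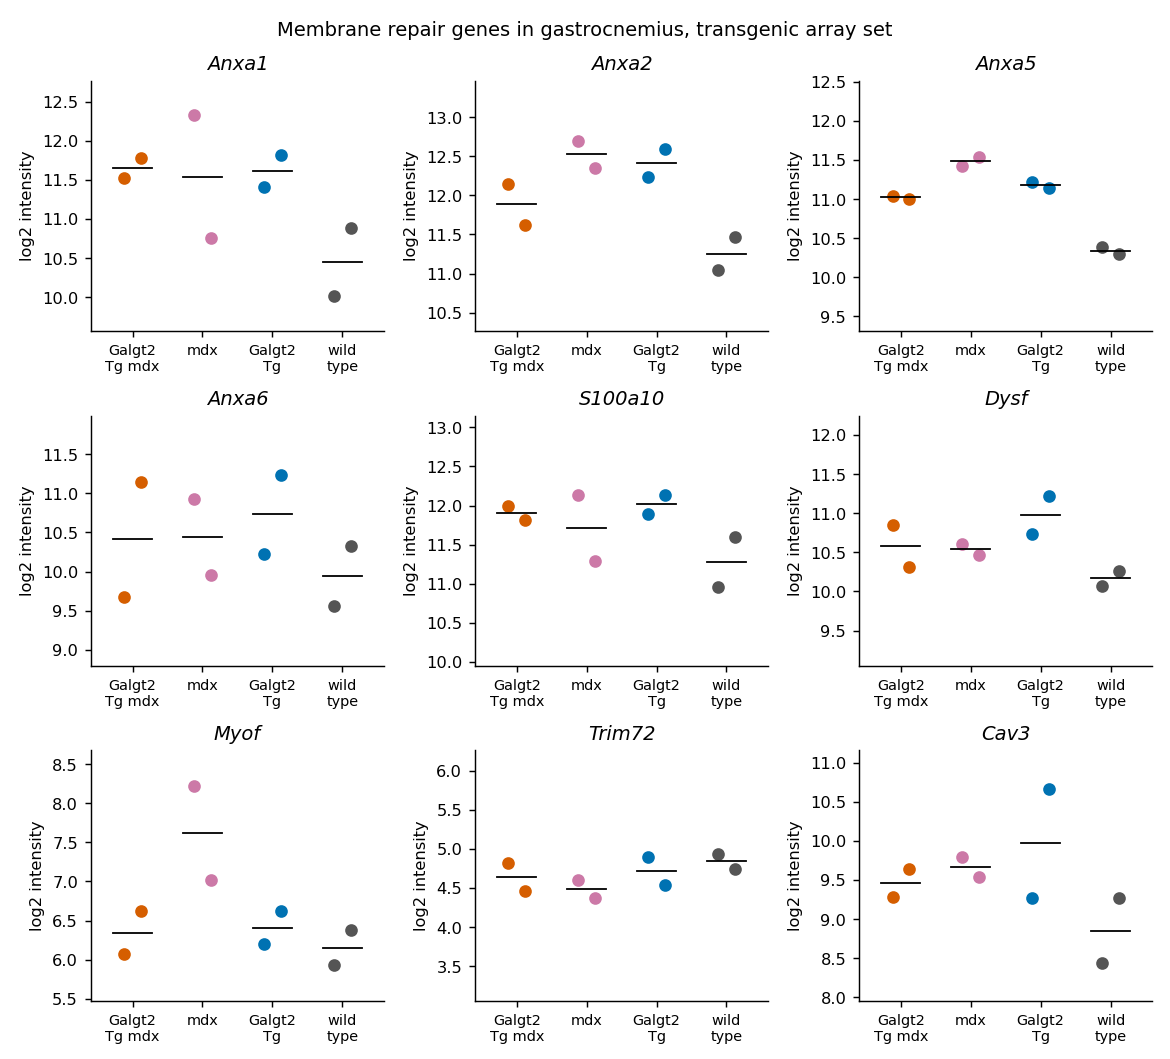
Log2 intensity (y axis) of the 9 membrane repair genes in the first array set, 1 panel per gene, with 1 point per array and a line at the mean of the 2 arrays; groups run from Galgt2 transgenic mdx through mdx and Galgt2 transgenic to wild type. Anxa2 and Anxa5 show both mdx points above both wild-type points, and for Myof the mdx points at 8.22 and 7.02 stand above the points of the other groups.

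In Galgt2 transgenic muscle with intact dystrophin, 8 of 9 members averaged higher than in wild type, against 44.6% of all genes. None of the 9 passed the test. Anxa2 had 12.23 and 12.59 in transgenic arrays against 11.04 and 11.46 in wild type, a difference of 1.16 ± 0.31 (adjusted p = 0.0887). In the alternatives that keep all arrays, the lowest Anxa2 difference was 0.49. Anxa5 had 11.22 and 11.14 in transgenic arrays against 10.38 and 10.29 in wild type, a difference of 0.85 ± 0.22 (adjusted p = 0.0806). For both genes the transgenic arrays lay above the wild-type arrays. Anxa1 had 11.41 and 11.81 in transgenic arrays against 10.01 and 10.89 in wild type, a difference of 1.16 ± 0.46 (adjusted p = 0.265). S100a10 had 11.89 and 12.14 in transgenic arrays against 10.96 and 11.60 in wild type, a difference of 0.73 ± 0.30 (adjusted p = 0.29), again with the groups apart. Anxa6, with 10.23 and 11.23 in transgenic arrays against 9.56 and 10.33 in wild type, overlapped (difference 0.79, adjusted p = 0.614).

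Among the ferlins and muscle-restricted members, Cav3 had 9.27 and 10.67 in Galgt2 transgenic arrays against 8.44 and 9.26 in wild type. The difference was 1.12 ± 0.41 (adjusted p = 0.22). This value rests on transgenic replicate 2: without replicate 1 it was 1.81 (adjusted p = 0.0346), and without replicate 2 it was 0.42 (adjusted p = 0.724). Dysf had 10.74 and 11.22 in transgenic arrays against 10.07 and 10.27 in wild type, a difference of 0.81 ± 0.34 (adjusted p = 0.313). Both genes had transgenic arrays above the wild-type arrays. Myof overlapped at 6.20 and 6.62 in transgenic arrays against 5.93 and 6.37 in wild type, and Trim72 at 4.89 and 4.54 against 4.94 and 4.74 in wild type. By limma 0 of 9 members were called, against 3.15% of all genes, and 6 of 9 had an unadjusted p under 0.05, against 14.2%. Also 6 of 9 had both transgenic arrays above both wild-type arrays, against 20.5% of all genes. The members' median difference was 0.81, against -0.05 over all genes. The marker sums of 5 lists stood higher in Galgt2 transgenic than in wild-type muscle without overlap. These were macrophages, neutrophils, fibroblasts, regenerating fibres, and myoblasts and proliferation. The sums of endothelium, smooth muscle and mature fibres stood lower. Their part in these values was not tested.

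Within mdx muscle, the transgene went with lower myoferlin and slightly lower Anxa2 and Anxa5, none of which passed the test. Myof had 6.07 and 6.62 in Galgt2 transgenic mdx arrays against 8.22 and 7.02 in mdx arrays. Its difference was -1.27 ± 0.40 (adjusted p = 0.0927) on this brighter probe set, and -0.57 as the mean over both probe sets. On the brighter probe set the Galgt2 transgenic mdx arrays lay below both mdx arrays and overlapped with wild type at 5.93 and 6.37. Without mdx replicate 2 the difference was -1.87 (adjusted p = 0.0396), and without mdx replicate 1 it was -0.68 (adjusted p = 0.342). Anxa2 had 12.15 and 11.62 in Galgt2 transgenic mdx against 12.69 and 12.35 in mdx, a difference of -0.64 ± 0.31 (adjusted p = 0.282). Anxa5 had 11.045 and 11.001 in Galgt2 transgenic mdx against 11.43 and 11.54 in mdx, a difference of -0.46 ± 0.22 (adjusted p = 0.275). Over the fits with 1 array left out, the Anxa5 difference lay between -0.52 and -0.40 and that of Anxa2 between -0.90 and -0.37. The value of -0.37 came without Galgt2 transgenic mdx replicate 2, the array with the highest Gapdh 3' to 5' difference. These were the 3 of 9 members with both Galgt2 transgenic mdx arrays below both mdx arrays, against 22.3% of all genes. The marker sums of 5 of 9 lists were also lower in Galgt2 transgenic mdx than in mdx without overlap. Beside macrophages, endothelium had 2136.4 to 2232.2 in Galgt2 transgenic mdx against 3785.6 to 4033.4 in mdx, and smooth muscle 2246.7 to 2317.4 against 3582.5 to 4090.5 in mdx. Mature fibres had 91541.6 to 96571.3 in Galgt2 transgenic mdx against 106259.5 to 106520.6 in mdx, and the fifth list was fibroblasts. Their part in these values was not tested.

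The other members overlapped between Galgt2 transgenic mdx and mdx muscle. Anxa1 had 11.52 and 11.78 in Galgt2 transgenic mdx and 12.33 and 10.75 in mdx, and Anxa6 had 9.67 and 11.15 in Galgt2 transgenic mdx against 10.92 and 9.95 in mdx. For S100a10 the Galgt2 transgenic mdx arrays had 11.99 and 11.81 against 12.13 and 11.29 in mdx. For Dysf they had 10.85 and 10.31 against 10.61 and 10.46 in mdx. The means of Anxa1 and Anxa6 hide arrays that disagree within a group: with 1 array left out the Anxa1 difference lay between -0.68 and 0.90 and that of Anxa6 between -0.76 and 0.71. Cav3 had 9.28 and 9.64 in Galgt2 transgenic mdx against 9.79 and 9.54 in mdx, and Trim72 4.82 and 4.46 against 4.60 and 4.38 in mdx. The differences of these 6 genes were -0.20 to 0.19. By limma 0 of 9 members were called, against 6.08% of all genes, and 1 of 9 had an unadjusted p under 0.05, against 21.1%. The 95% interval was -0.72 to 0.80 for Dysf, -1.10 to 0.70 for Cav3, -0.90 to 1.12 for Anxa1 and -1.31 to 1.26 for Anxa6, so changes of that size are not excluded by these arrays.

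Against wild type, Galgt2 transgenic mdx muscle had Anxa1 higher by 1.20 ± 0.46 (adjusted p = 0.154) and Anxa5 higher by 0.69 ± 0.22 (adjusted p = 0.0961), and no member passed. The Anxa1 difference passed without mdx replicate 1 or without mdx replicate 2 (adjusted p = 0.0427 in each), fits that leave the difference itself as it was and change its error. It lay between 0.76 and 1.64 over the fits with 1 array left out, and did not pass in the other 18 of 20 alternatives, with adjusted p up to 0.521. By limma 0 of 9 were called, against 7.28% of all genes, 2 of 9 had an unadjusted p under 0.05, against 21.3%, and 6 of 9 had both arrays above both wild-type arrays, against 27.8%. Against Galgt2 transgenic muscle, 0 of 9 were called, against 0.055% of all genes, and 0 of 9 had an unadjusted p under 0.05, against 3.89%. In that comparison Anxa2 differed by -0.52, with 12.15 and 11.62 in Galgt2 transgenic mdx against 12.23 and 12.59 in Galgt2 transgenic. Anxa5 differed by -0.16, with 11.045 and 11.001 in Galgt2 transgenic mdx against 11.22 and 11.14 in Galgt2 transgenic. These were the 2 of 9 members with both Galgt2 transgenic mdx arrays below both Galgt2 transgenic arrays, against 9.48% of all genes. The comparisons of this set share arrays and are not independent of each other.

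The interaction asked whether the transgene acted differently in mdx and in dystrophin-positive muscle. Its log2 estimate was -1.79 ± 0.44 for Anxa2 (adjusted p = 0.154), -1.30 ± 0.31 for Anxa5 (adjusted p = 0.148), -1.53 ± 0.57 for Myof (adjusted p = 0.308) and -1.32 ± 0.57 for Cav3 (adjusted p = 0.394). A negative value means that the transgenic arrays stood less far above, or further below, their non-transgenic partners in mdx than in dystrophin-positive muscle. Over the fits with 1 array left out, the estimate lay between -2.06 and -1.53 for Anxa2 and between -1.36 and -1.25 for Anxa5. It lay between -2.13 (without mdx replicate 2) and -0.93 (without mdx replicate 1) for Myof, and between -2.02 (without Galgt2 transgenic replicate 1) and -0.62 (without Galgt2 transgenic replicate 2) for Cav3. None passed in these fits. In the alternatives that keep all arrays, the weakest estimate was -0.83 for Anxa2, -1.14 for Anxa5, -0.60 for Myof and -1.16 for Cav3. The 4 genes had an unadjusted p under 0.05, against 11.9% of all genes, but by limma 0 of 9 passed after adjustment, against 0.044% of all genes.

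**Figure D2:**
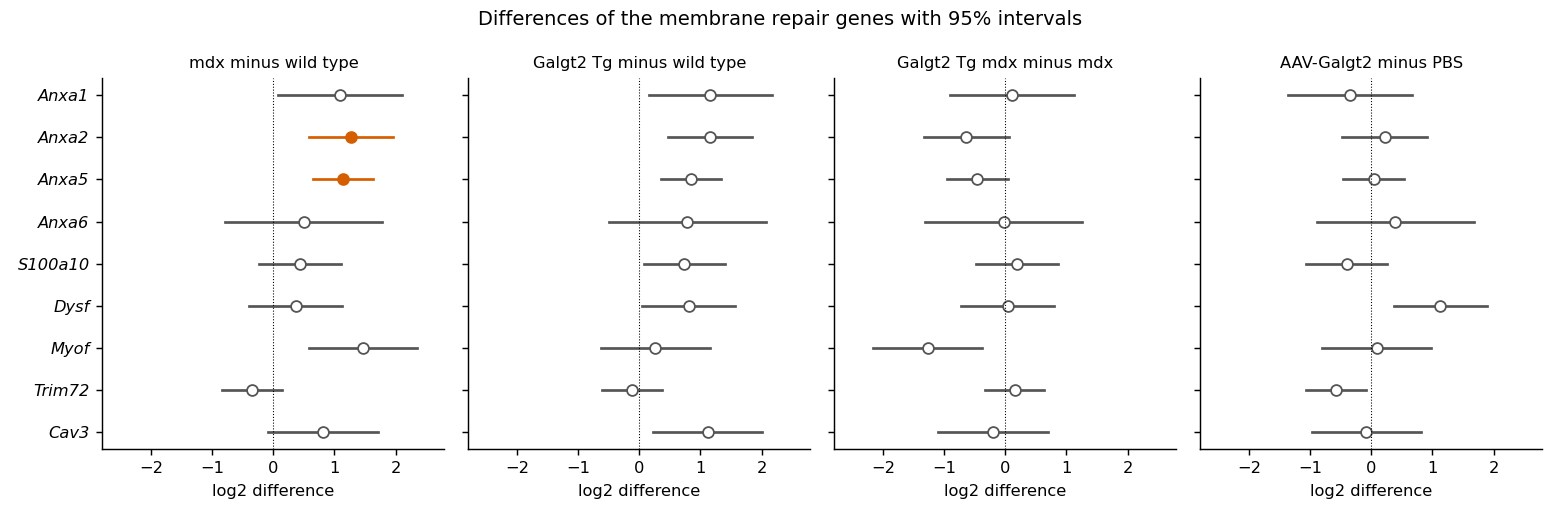
Log2 difference (x axis) of each of the 9 genes in 4 muscle comparisons, with lines for the 95% interval from limma and a filled orange point where the adjusted p was under 0.05. Anxa2 and Anxa5 in mdx minus wild type are the only filled points.

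Arrays of one group disagreed more for some members than for others. The pooled standard deviation between replicate arrays was 0.73 for Anxa6 (percentile 98.2 among genes), 0.56 for Anxa1 and 0.49 for Cav3, against 0.19 for Anxa5 and a median of 0.27 over all genes. The middle probe set for beta-actin, a control on the array, moved between replicates as well. Replicate 2 minus replicate 1 was 0.74 for Galgt2 transgenic mdx, -2.11 for mdx, 2.09 for Galgt2 transgenic and 1.64 for wild type. In the injected set it was 0.20 for AAV-Galgt2 and 0.91 for PBS. Of the 9 members, 4 were higher in replicate 2 of Galgt2 transgenic mdx, 1 of mdx, 7 of Galgt2 transgenic and 7 of wild type. In the injected set 2 were higher in replicate 2 of AAV-Galgt2 and 7 of PBS. The share over all genes was not counted. The part of these replicate gaps in the members' values was not tested.

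Over the 12 muscle arrays, the genes of most similar pattern were named by the mean absolute difference of levels after removing each gene's mean within an array set, among the 9097 genes above the median level. For Anxa2 they were Smim3 (0.124) and Rbfox2 (0.142), and for Anxa5 they were Plp2 (0.107) and Cib1 (0.113). Plp2, a membrane protein gene, had 10.94 and 10.49 in Galgt2 transgenic mdx, 10.93 and 11.18 in mdx, 11.01 and 10.98 in Galgt2 transgenic and 10.04 and 9.86 in wild type. The likeness describes these arrays, which share groups and processing.

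Among 7 other annexins, Anxa8 rose in both transgenic groups over their partners, and Anxa4 rose in mdx and in Galgt2 transgenic muscle over wild type. Anxa8, an annexin best known from epithelia, had 10.70 and 10.09 in Galgt2 transgenic mdx against 6.52 and 6.89 in mdx, and 9.93 and 9.95 in Galgt2 transgenic against 5.91 and 5.52 in wild type. No transgenic array overlapped with its partner group, and the differences were 3.69 ± 0.30 within mdx (12.9-fold, adjusted p = 0.00017) and 4.23 ± 0.30 against wild type (18.7-fold, adjusted p = 7.79e-05). Anxa4, which binds membranes in secretory epithelia and other cells, had 12.53 and 12.30 in Galgt2 transgenic mdx, 11.79 and 11.73 in mdx, 12.57 and 12.46 in Galgt2 transgenic and 10.76 and 10.55 in wild type. It rose by 1.86 ± 0.24 in Galgt2 transgenic muscle (adjusted p = 0.00253) and by 1.11 ± 0.24 in mdx (adjusted p = 0.0281) against wild type, while its difference of 0.66 between Galgt2 transgenic mdx and mdx did not pass (adjusted p = 0.145). The rise in mdx was lost without any 1 array of mdx, wild type or AAV-Galgt2 muscle, with median centring, with the mean over all probe sets and with the replicate number as a block, with an adjusted p of 0.174 at the highest. The Anxa8 calls and the Anxa4 call in Galgt2 transgenic muscle passed in each of 20 alternatives. Of the 7, 1 was called higher in mdx against wild type (3.75% of all genes), 2 in Galgt2 transgenic against wild type (2.12%) and 1 in Galgt2 transgenic mdx against mdx (3.97%). In each comparison 0 were called lower, against 1.69%, 1.03% and 2.11% of all genes in that order. Their median difference was 0.19 in mdx against wild type, 0.45 in Galgt2 transgenic against wild type and 0.22 in Galgt2 transgenic mdx against mdx.

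Of 9 genes for S100 proteins and AHNAK, the calcium-binding partners of annexins and the large scaffold that S100A10 and annexin A2 bind, S100a4 had the greatest rise against wild type among those that passed the test. S100a4, a motility gene of fibroblasts and leukocytes, had 13.52 and 13.25 in Galgt2 transgenic mdx, 12.73 and 12.45 in mdx, 13.35 and 13.21 in Galgt2 transgenic and 10.79 and 10.24 in wild type. Every other group stood above wild type. Against wild type the difference was 2.08 ± 0.25 in mdx (4.22-fold, adjusted p = 0.00309) and 2.76 ± 0.25 in Galgt2 transgenic muscle (6.79-fold, adjusted p = 0.000444). S100a13, which takes part in unconventional secretion, rose by 1.74 ± 0.21 in Galgt2 transgenic muscle against wild type (adjusted p = 0.002) and by 0.88 ± 0.21 in Galgt2 transgenic mdx against mdx (adjusted p = 0.037). The second of these was lost in 12 of 20 alternatives: without any 1 array of Galgt2 transgenic mdx, mdx, wild type or AAV-Galgt2 muscle, with each array set fitted on its own, with the block, with median centring and with trended and robust eBayes (adjusted p up to 0.152). S100a6, the partner known as calcyclin, had 12.89 and 13.02 in Galgt2 transgenic muscle against 11.83 and 11.82 in wild type, a rise of 1.13 ± 0.22 (adjusted p = 0.021) that was lost without any 1 array of these groups, with each array set fitted on its own, with the block and with median centring (adjusted p up to 0.135). In mdx against wild type 1 of 9 was called higher (3.75% of all genes), in Galgt2 transgenic against wild type 3 (2.12%) and in Galgt2 transgenic mdx against mdx 1 (3.97%), with 0 lower in each. Their median difference was 0.80, 1.13 and 0.19 in these comparisons. The list also holds S100a8 and S100a9, which mark neutrophils and differed by 4.04 and 3.31 in Galgt2 transgenic against wild type without passing (adjusted p = 0.107 and 0.228). S100a8 also differed by 2.17 in mdx against wild type (adjusted p = 0.34), and the summed neutrophil markers spanned 955.2 to 9564.3 over the Galgt2 transgenic arrays, against 199.5 to 349.4 in wild type. The part of leukocyte messages in the S100 values was not tested.

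The ferlins and dysferlin partners, with 9 genes measured, gave no call in these 3 comparisons. Of all genes, 5.44% were called in mdx against wild type, 3.15% in Galgt2 transgenic against wild type and 6.08% in Galgt2 transgenic mdx against mdx. The median differences of the list were 0.41, 0.35 and -0.01 in that order. Ehd1, a membrane-shaping protein of the endocytic pathway, had 10.90 and 10.90 in Galgt2 transgenic mdx against 9.74 and 9.24 in wild type, and that comparison alone called it (1.41 ± 0.33, adjusted p = 0.0293). The call was lost without any 1 array of Galgt2 transgenic mdx, wild type or AAV-Galgt2 muscle, with each array set fitted on its own and with the block (adjusted p up to 0.204). In mdx against wild type the nearest to passing was Fer1l6, a ferlin family gene, with 6.60 and 6.70 in mdx against 7.80 and 7.83 in wild type. Both mdx arrays stood below both wild-type arrays, with a difference of -1.17 ± 0.30 (adjusted p = 0.0516). Ehd1 was next there, with a difference of 1.12 ± 0.33 (adjusted p = 0.0766). In Galgt2 transgenic against wild type the calpain genes Capn2 (0.77, adjusted p = 0.107) and Capns1 (0.71, adjusted p = 0.159) came nearest, and in Galgt2 transgenic mdx against mdx Fer1l6 (0.46, adjusted p = 0.445) and Otof (-0.30, adjusted p = 0.507). The calpains and Parvb, which work beside dysferlin, had no adjusted p under 0.05 in the first array set.

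Among 8 genes of caveolae, Cavin4 rose in both transgenic groups. Cavin4 encodes the muscle cavin that coats caveolae together with caveolin-3. It had 11.78 and 12.25 in Galgt2 transgenic mdx against 10.45 and 10.90 in mdx, and 11.74 and 11.96 in Galgt2 transgenic against 10.56 and 10.66 in wild type. The transgenic arrays stood above their partners in each case, with differences of 1.33 ± 0.25 (adjusted p = 0.0138) and 1.24 ± 0.25 (adjusted p = 0.0227). The first was lost without Galgt2 transgenic mdx replicate 2, the array with the highest Gapdh 3' to 5' difference (adjusted p = 0.0982), and the second without any 1 array of its groups (adjusted p up to 0.15). The second was also lost with each array set fitted on its own. In mdx against wild type Cavin4 differed by 0.07 ± 0.25 (adjusted p = 0.929), and the nearest to passing were Cavin3 (0.88, adjusted p = 0.172) and Cavin2 (-0.46, adjusted p = 0.309), which also code for cavins. Cavin1, needed for caveolae to form, was next after Cavin4 within mdx, with 10.36 and 10.13 in Galgt2 transgenic mdx against 11.23 and 10.93 in mdx (-0.84 ± 0.24, adjusted p = 0.0667). Called higher were 0 of 8 in mdx against wild type (3.75% of all genes) and 1 in Galgt2 transgenic against wild type (2.12%). In Galgt2 transgenic mdx against mdx 1 was called higher (3.97%). Cavin4 is the only one of the 8 that passed in any muscle comparison.

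Of 14 genes for vesicle fusion and for the ESCRT machinery, which cuts off damaged membrane, Pdcd6ip was the only gene called. In Galgt2 transgenic against wild type this was 1 of 14, against 3.15% of all genes. In mdx against wild type 0 of 14 were called (5.44% of all genes), and in Galgt2 transgenic mdx against mdx 0 (6.08%). The list's median difference was 0.10 in mdx against wild type, 0.01 in Galgt2 transgenic against wild type and 0.15 in Galgt2 transgenic mdx against mdx. The Pdcd6ip protein, ALIX, brings ESCRT to membrane wounds. Pdcd6ip had 9.42 and 9.75 in Galgt2 transgenic mdx, 9.44 and 9.07 in mdx, 9.38 and 9.68 in Galgt2 transgenic and 8.35 and 8.63 in wild type. The 3 groups with the transgene or the mdx mutation stood above wild type. It rose by 1.04 ± 0.23 in Galgt2 transgenic muscle (adjusted p = 0.0367), and differed by 0.76 ± 0.23 in mdx (adjusted p = 0.0809). The call was lost in 11 of 20 alternatives: without any 1 array of wild type, Galgt2 transgenic or AAV-Galgt2 muscle, with each array set fitted on its own, with the block, with median centring, with trended and robust eBayes and with the mean over all probe sets (adjusted p up to 0.244). Vps4b, an ESCRT ATPase gene, came next in mdx against wild type (-0.80, adjusted p = 0.362) and nearest in Galgt2 transgenic mdx against mdx (1.10, adjusted p = 0.182), followed there by Vamp2 (-0.64, adjusted p = 0.265). Against wild type, Galgt2 transgenic mdx muscle had 8 genes of the 5 lists called higher, where 4.91% of all genes were, and the differences were 4.68 for Anxa8, 2.87 for S100a4, 1.76 for Anxa4, 1.68 for S100a13, 1.41 for Ehd1, 1.40 for Cavin4, 1.09 for Pdcd6ip and 1.01 for S100a6. The last 2 and the Ehd1 and Cavin4 calls were lost without either wild-type array. Without a Galgt2 transgenic mdx array they were lost too, for S100a6 without replicate 1, for Cavin4 and Pdcd6ip without replicate 2 and for Ehd1 without either. Of 20 alternatives, 6 lost S100a6, 8 Ehd1, 3 Cavin4 and 5 Pdcd6ip, and the other 4 genes passed in every one.

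**Figure D3:**
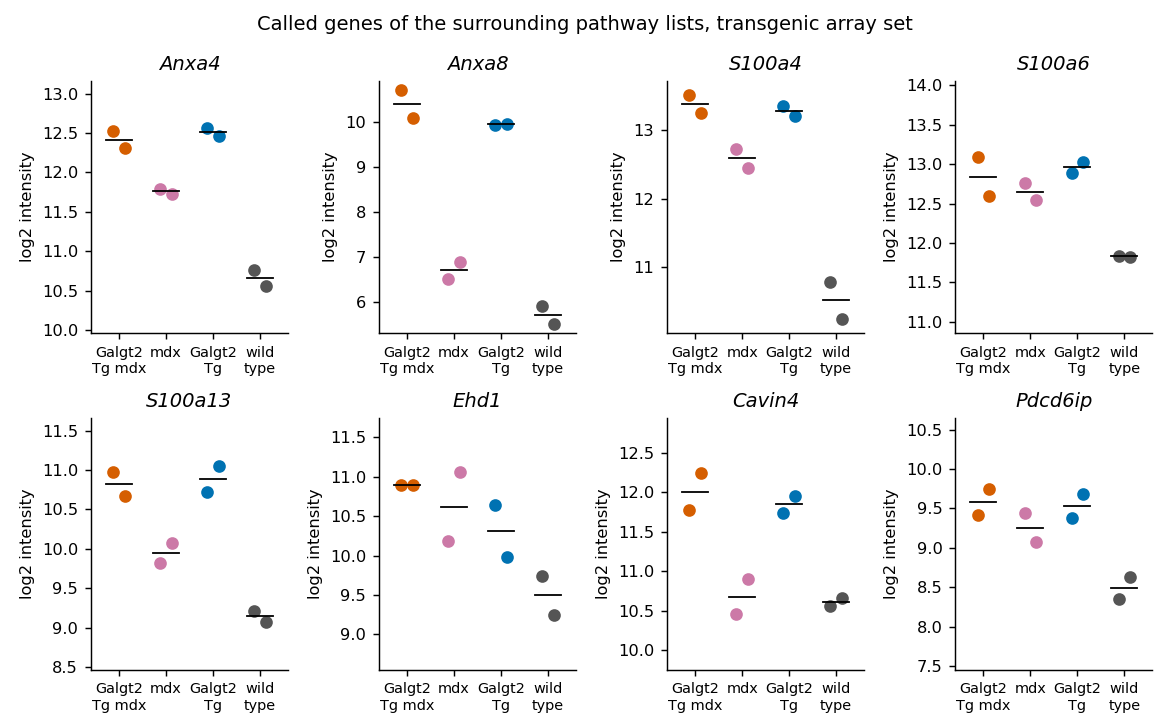
Log2 intensity (y axis) per array of genes from the related lists that passed in at least 1 comparison of the first array set, 1 panel per gene, in the order Galgt2 transgenic mdx, mdx, Galgt2 transgenic and wild type, with a line at the mean of 2 arrays. Anxa8 shows the widest gap, from 9.93 and above in both transgenic groups to 6.89 and below in the groups without the transgene.

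In injected mdx muscle no member passed the test between AAV-Galgt2 and PBS. The test took these arrays as unpaired although the PBS muscle is contralateral, since the labels do not name the mouse behind each array. Dysf, whose protein drives vesicle fusion at wounds, had 9.27 and 9.03 in AAV-Galgt2 arrays against 7.47 and 8.58 in PBS arrays. PBS replicate 1 was the lower of the PBS arrays for 7 of 9 members. The array medians over genes were 5.61 and 5.79 in PBS against 5.95 and 5.82 in AAV-Galgt2. Dysf was the 1 member of 9 with both AAV-Galgt2 arrays above both PBS arrays, against 25.3% of all genes. Its difference was 1.13 ± 0.34 (2.18-fold, adjusted p = 0.446 in limma). PBS replicate 1 decides its size: without it the difference was 0.57 (adjusted p = 1), and without PBS replicate 2 it was 1.68 (adjusted p = 0.0493), with the spread taken from the other groups. By limma 0 of 9 members were called, against 0% of all genes, and 2 of 9 had an unadjusted p under 0.05, against 8.28%. The 2 were Dysf and Trim72, whose dim probe set had 3.42 and 3.59 in AAV-Galgt2 against 4.21 and 3.97 in PBS (difference -0.58 ± 0.22, adjusted p = 0.519).

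The annexins did not follow one direction after injection. Anxa1 had 10.81 and 10.70 in AAV-Galgt2 against 10.85 and 11.35 in PBS, and S100a10 had 10.68 and 10.45 in AAV-Galgt2 against 11.07 and 10.87 in PBS. Both genes had their AAV-Galgt2 arrays below their PBS arrays, with differences of -0.35 ± 0.46 for Anxa1 and -0.41 ± 0.30 for S100a10 (adjusted p = 0.907 and 0.78). Anxa2 had 12.03 and 11.99 in AAV-Galgt2 against 11.36 and 12.23 in PBS, Anxa5 9.78 and 9.32 against 9.29 and 9.74 in PBS, and Anxa6 7.94 and 7.42 against 6.70 and 7.88 in PBS. In these 3 genes the AAV-Galgt2 arrays overlapped with the PBS arrays. Myof had 6.32 and 6.04 in AAV-Galgt2 against 5.71 and 6.47 in PBS, and Cav3 7.77 and 7.82 against 7.86 and 7.89 in PBS. Anxa1, S100a10, Trim72 and Cav3 were the 4 of 9 with both AAV-Galgt2 arrays below both PBS arrays, against 18.6% of all genes. The members' median difference was 0.03, the same as over all genes, and the 95% interval for Anxa2 was -0.48 to 0.91. Of the 9 marker lists the sums of 6 were apart, and those of macrophages, of neutrophils and of myoblasts and proliferation overlapped. Regenerating fibre markers summed to 4668.4 to 5101.2 in AAV-Galgt2 against 1831.8 to 4180.8 in PBS, and mature fibre markers to 62046.4 to 62359.2 in AAV-Galgt2 against 57619.6 to 57993.7 in PBS. Endothelium, smooth muscle and fibroblast sums were also higher in AAV-Galgt2. Of 6 fibroblast genes, though, 2 had both AAV-Galgt2 arrays above both PBS arrays and 2 had both below. The 2 adipocyte markers measured summed to 412.1 to 457.6 in AAV-Galgt2 against 1103.5 to 1595.6 in PBS. Of the 9 sums, 5 were higher in AAV-Galgt2 as Dysf was, 1 was lower and 3 overlapped. Their part in the Dysf difference was not tested. None of the 5 related lists held a call in this comparison. The lowest adjusted p in these lists was that of Parvb, a dysferlin-binding adhesion protein, with a difference of 1.03 ± 0.26 (adjusted p = 0.361). The other genes of smallest p within their lists were Capn1 (0.96), S100a13 (-0.59) and Vamp2 (0.83), with adjusted p from 0.461 to 0.516, then Cavin1 (0.48), Ehd2 (0.74), S100b (-0.57), Anxa7 (0.53), Pdcd6ip (0.34) and Anxa8 (-0.34), with adjusted p from 0.644 to 0.822.

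**Figure D4:**
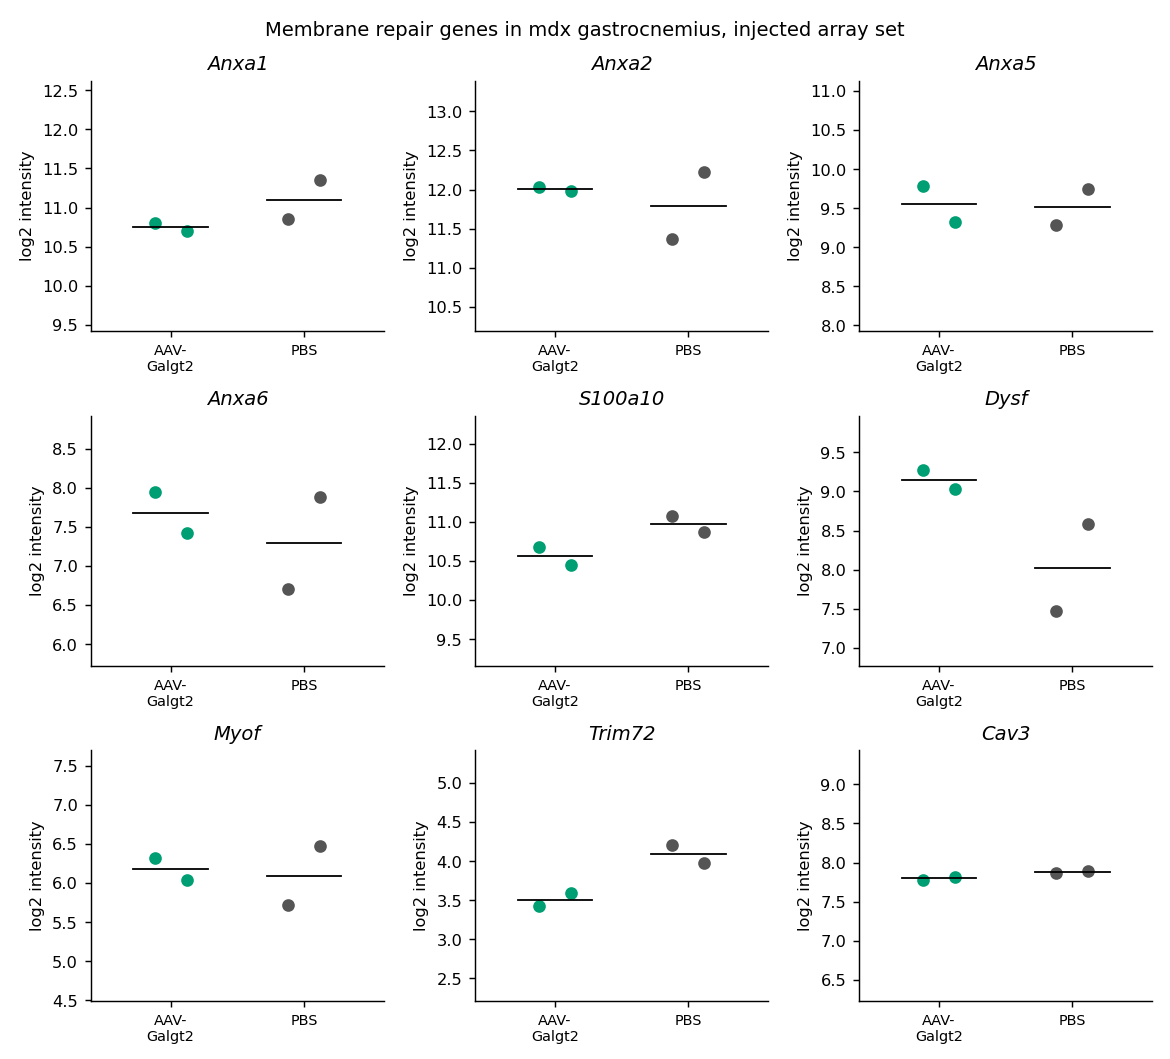
Log2 intensity (y axis) of the 9 genes in mdx gastrocnemius given AAV-Galgt2 or PBS, 1 panel per gene, with 1 point per array and a line at the mean of 2 arrays. Dysf shows both AAV-Galgt2 points above both PBS points, and PBS replicate 1 at 7.47 stands apart.

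With a single array for each cell line condition no test was possible, and a difference of at least 2-fold was counted. B4galnt2 stood at 10.82 and 9.76 on the C2CT myotube and myoblast arrays, against 4.81 and 4.58 on the arrays labelled C2C12 myotube and myoblast. The untransfected pair goes against its labels for differentiation. The array labelled C2C12 myotube had Dmd at 6.18 and the muscle creatine kinase Ckm at 6.32, against 8.95 and 8.09 on the array labelled C2C12 myoblast, and 0 of 8 mature fibre markers were higher on the array labelled myotube. In the C2CT pair, 8 of 8 were higher in myotubes. Differences that use the untransfected arrays are therefore given by label only, without a direction of differentiation.

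In C2CT cells, whose labels and markers went together, Cav3 and Dysf were higher in myotubes. Cav3 had 9.55 in the C2CT myotube array against 7.39 in the C2CT myoblast array, a difference of 2.15, and Dysf had 10.84 against 9.47, a difference of 1.37. These 2 of 9 members were at least 2-fold higher, against 3.35% of all genes, and 0 were at least 2-fold lower, against 2.24%. The annexins, S100a10 and myoferlin, the ferlin of fusing myoblasts, went the other way by less than 2-fold. Myof had 9.17 in myotubes against 9.96 in myoblasts, Anxa5 10.15 in myotubes against 10.84 in myoblasts, and S100a10 11.70 in myotubes against 12.29 in myoblasts. Anxa2 had 12.60 in myotubes against 13.04 in myoblasts, and Anxa1 12.13 in myotubes against 12.44 in myoblasts. The exceptions in size were Anxa6, at 10.50 in myotubes against 10.56 in myoblasts, and in direction Trim72, at 5.46 in myotubes against 4.85 in myoblasts.

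The array labelled C2C12 myotube gave differences of the opposite sign for 8 of the 9 members, Trim72 being the exception. For Anxa6 the differences were small, at 0.06 in this pair and -0.06 in C2CT. The share of all genes with opposite signs was not counted. Cav3 had 7.58 on the array labelled C2C12 myotube against 10.72 on the array labelled C2C12 myoblast, a difference of -3.14. Dysf had 9.27 against 10.91 on these arrays, a difference of -1.64. These 2 of 9 were at least 2-fold lower, against 4.27% of all genes, and 0 of 9 were at least 2-fold higher, against 4.09%. On the array labelled myotube Myof stood at 10.03 against 9.28 on the array labelled myoblast, and Anxa5 at 11.08 against 10.30 on the array labelled myoblast. Anxa1 stood at 12.89 on the array labelled myotube against 12.11 on the array labelled myoblast. Between lines, the C2CT myoblast array minus the array labelled C2C12 myoblast gave -3.33 for Cav3 and -1.44 for Dysf, the 2 of 9 at least 2-fold lower, against 3.56% of all genes. The C2CT myotube array minus the array labelled C2C12 myotube gave 1.96 for Cav3 and 1.57 for Dysf, the 2 of 9 at least 2-fold higher, against 4.51%. The effect of Galgt2 in cells cannot be told apart from the label conflict.

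Messages of Anxa1 and Anxa2 were high in the cell lines, and those of Anxa5 were lower. Anxa2 stood at 12.60 to 13.26, Anxa1 at 12.11 to 12.89 and Anxa5 at 10.15 to 11.08 on the 4 arrays. Of 10 macrophage markers, 9 lay at or below the 52.5 percentile of genes on these arrays. The exception was Lgals3, at 92.9 to 97.8. Which cells of whole muscle gave the annexin differences was not tested. Anxa8, raised with the transgene in muscle, was at 9.45 to 11.06 in the cell lines, untransfected ones included. Other annexin genes had low values on the same arrays, with Anxa9 at 3.95 to 5.05, Anxa10 at 4.77 to 5.15 and Anxa13 at 3.42 to 3.75.

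**Figure D5:**
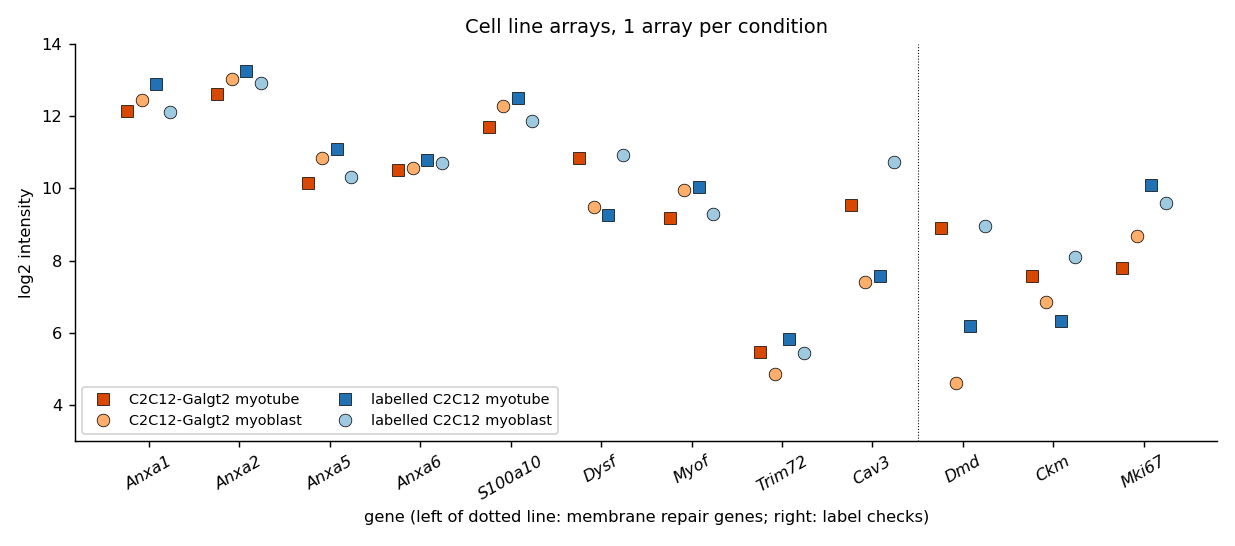
Log2 intensity (y axis) of the 9 genes and, right of the dotted line, of the label checks Dmd, Ckm and Mki67 on the 4 cell line arrays, with 1 point per array and no replicates. Cav3 and Dysf are higher in C2CT myotubes than in C2CT myoblasts, and lower on the array labelled C2C12 myotube than on the array labelled C2C12 myoblast.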

How the data were processed

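The 12 muscle arrays and 4 cell line arrays hold intensity values per probe set, which the authors deposited after GCOS and RMA, per the submitters' processing notes; no versions are given there. Values from 3.9 to 24269 were treated as linear, and log2 was taken. Medians per array were 57.7 to 63.9 (transgenic set), 25.3 to 25.7 (injected set) and 57.2 to 60.4 (cell lines), and levels of different sets were not compared. The number of arrays limits the precision. The labels record 25 ng of RNA per muscle array. Of 45101 probe sets, 34958 carry 1 symbol, and 932 with several and 9211 with none were left out. One model of 6 group means was fitted to the muscle arrays with limma 3.58.1 under R 4.3.3, with eBayes and Benjamini-Hochberg adjustment over 18194 genes, two-sided, threshold 0.05. The fit was tested on simulated data. The members, the 5 related lists and the 9 marker lists were chosen with earlier results of these data known. Named genes are all members, Dmd and B4galnt2, and, from each related list and comparison, up to 4 genes that passed, or, with no call, the 2 genes with the lowest p (not given for Galgt2 transgenic mdx against Galgt2 transgenic and for the interaction); a few more, chosen after their values were seen, are Cavin1, S100a8, S100a9 and the low cell line annexins. Alternatives were a fit within each array set, the replicate number as a block, quantile and median scaling, an added constant of 16, a filter on dim genes, a mean over probe sets, trended and robust eBayes, and each array left out.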

Additional observations from a re-analysis of the deposited data

Results flagged for a closer look

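The differentiation difference (array labelled myotube minus array labelled myoblast) had opposite signs in C2CT and in C2C12 cells for 8 of the 9 members. As C2CT minus C2C12, the gap between these log2 differences was 5.29 for Cav3, 3.01 for Dysf, -1.54 for Myof, -1.46 for Anxa5, -1.22 for S100a10, -1.10 for Anxa1, -0.79 for Anxa2 and -0.12 for Anxa6. Each condition has 1 array, so the gap was not tested. The share of all genes with opposite signs was not counted. For Anxa6 the differences were small, at -0.06 in C2CT and 0.06 in C2C12. Mature fibre markers of the untransfected pair go against its labels, with 0 of 8 higher on the array labelled myotube, against 8 of 8 in the C2CT pair.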

How the results depend on the processing

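In muscle, 1229 of 1253 member values under an alternative stayed on their side of the threshold, 16 lost a call, 8 gained one and 0 called values changed sign. In mdx against wild type, 2 members were called; the count was 1 with median centring, with log2(value + 16) and with the mean over all probe sets, and 0 to 2 with 1 array left out. In the other comparisons, where 0 were called, leaving out 1 array gave 0 to 1 in Galgt2 transgenic against wild type, in Galgt2 transgenic mdx against wild type and against mdx, and in AAV-Galgt2 against PBS. Trended and robust eBayes gave 1 call in Galgt2 transgenic against wild type, Anxa2 (adjusted p = 0.0392). With the replicate number as a block, 0 members were called in mdx against wild type (Anxa2 adjusted p = 0.0784, Anxa5 adjusted p = 0.0518). All-gene calls were then 582 in place of 990. The labels do not say whether replicate numbers pair the samples. Replicate 2 minus replicate 1 correlated between groups at r from -0.439 to 0.542 over genes, which cannot decide it. The block left the members called at 0 in the other comparisons. Calls over all genes ranged over the alternatives from 132 to 1620 in mdx against wild type, 184 to 653 in Galgt2 transgenic against wild type (573 as reported), 311 to 1295 in Galgt2 transgenic mdx against mdx (1107), 434 to 1679 against wild type (1324) and 3 to 22 against Galgt2 transgenic (10), 0 to 142 for the interaction (8) and 0 to 158 in AAV-Galgt2 against PBS (0). Median centring moves log2 differences by 0.28 in mdx, 0.17 in Galgt2 transgenic and 0.29 in Galgt2 transgenic mdx, each against wild type, by 0.12 in Galgt2 transgenic mdx against Galgt2 transgenic, and by 0.18 in AAV-Galgt2 against PBS. In the cell lines 178 of 180 differences moved by less than the gene's pooled standard deviation in muscle, and 2 by more. With 2 arrays per group, differences smaller than the intervals were not detectable. The filter on dim genes left out Trim72.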
